A study of Mus musculus with 15 samples.

Results

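Forkhead transcription factors are DNA-binding proteins that share the winged-helix, or forkhead, domain and carry gene symbols beginning with Fox followed by a subfamily letter. All genes of the count table whose symbol is Fox, a letter and a number were taken as members, which gave 44 of 24451 genes, in 19 subfamilies on 16 chromosomes. Membership went by symbol and used no measured value, but the family was chosen with earlier results of these data known. RNA was sequenced from the mouse embryonic stem cell line ES-R1, kept at low passage and labelled as derived from the inner cell mass. The cells carried an siRNA and were sampled in 4 days of differentiation. The 5 groups of 3 libraries were Vprbp siRNA with Activin A at 25 ng/ml, control siRNA with Activin A at 25 ng/ml, control siRNA with the inhibitor SB, Vprbp siRNA without addition and control siRNA without addition. Vprbp (Dcaf1) brings substrates to the ubiquitin ligase CRL4. Activin binds type II and type I receptors that phosphorylate Smad2 and Smad3, and SB blocks these type I receptors. The titles and the series text number the inhibitor differently, and the sources used here do not give its dose. All groups share 1 cell line and a transfected siRNA, there was no SB group with Vprbp siRNA, and an siRNA lowers its target without removing it.

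Several forkhead factors act in the cells and germ layers that Activin and Nodal signalling controls. Foxh1 carries Smad2 and Smad3 to the enhancers of Nodal targets in the early embryo, Foxd3 is needed to maintain the epiblast and later the neural crest, and Foxa1 and Foxa2 open chromatin in endoderm and in the floor plate. Foxj1 drives motile cilium genes, Foxm1 drives genes of the G2 and M phases, and the Foxo factors are kept out of the nucleus by insulin and PI3K signalling.

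The promoters of 6 members that were lower or higher with SB are shown with the motifs of Smad and forkhead proteins that they hold. A link between these letters and the levels was not tested. RefSeq windows on GRCm38.p6 run from 250 bases before to 50 bases after a transcript start, and 28 members had at least 1 window, 33 in all. The motifs searched on both strands were the Smad box CAGAC, the GC-rich Smad motif GGCGCC, the Foxh1 motif AATNNACA and the forkhead motif GTAAACA. Capitals mark the matches, and a window without capitals has none. Foxd3, Foxa1 and Foxp1 were lower with SB, and Foxp1 is shown by the first of the 2 windows, of its 3, that hold a Foxh1 motif.
Foxd3 promoter, chr4:99656049-99656348, plus strand: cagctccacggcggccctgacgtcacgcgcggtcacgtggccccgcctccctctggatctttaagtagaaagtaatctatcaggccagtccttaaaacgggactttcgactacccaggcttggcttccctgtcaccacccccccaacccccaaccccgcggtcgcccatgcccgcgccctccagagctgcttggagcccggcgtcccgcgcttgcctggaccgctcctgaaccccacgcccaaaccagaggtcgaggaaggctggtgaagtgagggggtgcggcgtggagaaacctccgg
Foxa1 promoter, chr12:57546062-57546361, minus strand: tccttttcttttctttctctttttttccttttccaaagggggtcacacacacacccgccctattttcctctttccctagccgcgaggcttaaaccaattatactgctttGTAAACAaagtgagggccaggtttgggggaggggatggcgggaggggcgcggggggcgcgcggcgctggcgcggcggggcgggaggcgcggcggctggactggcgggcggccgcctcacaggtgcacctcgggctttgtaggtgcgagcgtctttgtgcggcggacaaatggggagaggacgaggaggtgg
Foxp1 promoter, chr6:99520944-99521243, minus strand: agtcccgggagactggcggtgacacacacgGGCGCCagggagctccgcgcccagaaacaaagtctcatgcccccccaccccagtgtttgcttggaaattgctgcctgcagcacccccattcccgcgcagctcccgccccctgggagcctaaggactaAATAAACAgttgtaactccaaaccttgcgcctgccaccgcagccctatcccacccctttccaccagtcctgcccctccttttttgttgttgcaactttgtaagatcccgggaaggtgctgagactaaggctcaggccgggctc
Foxd2, Foxd1 and Foxc1 were higher with SB.
Foxd2 promoter, chr4:114908849-114909148, minus strand: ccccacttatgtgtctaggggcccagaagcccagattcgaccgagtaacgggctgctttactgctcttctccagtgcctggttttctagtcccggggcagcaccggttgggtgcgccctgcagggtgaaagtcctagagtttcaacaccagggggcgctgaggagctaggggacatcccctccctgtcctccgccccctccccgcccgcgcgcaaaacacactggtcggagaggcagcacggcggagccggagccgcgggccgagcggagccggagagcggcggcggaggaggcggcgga
Foxd1 promoter, chr13:98353995-98354294, plus strand: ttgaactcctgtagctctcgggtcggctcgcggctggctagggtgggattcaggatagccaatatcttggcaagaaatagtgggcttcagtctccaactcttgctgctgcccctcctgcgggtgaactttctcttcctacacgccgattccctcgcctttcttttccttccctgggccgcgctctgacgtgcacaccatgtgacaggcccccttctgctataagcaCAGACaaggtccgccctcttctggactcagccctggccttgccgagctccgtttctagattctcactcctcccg
Foxc1 promoter, chr13:31806396-31806695, plus strand: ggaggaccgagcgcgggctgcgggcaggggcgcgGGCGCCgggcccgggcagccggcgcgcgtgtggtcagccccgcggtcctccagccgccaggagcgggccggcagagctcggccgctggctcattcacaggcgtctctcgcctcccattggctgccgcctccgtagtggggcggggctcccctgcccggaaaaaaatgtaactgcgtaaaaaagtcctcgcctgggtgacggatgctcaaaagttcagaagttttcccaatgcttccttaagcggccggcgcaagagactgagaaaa
The Foxa1 window held GTAAACA, the Foxp1 window AATAAACA and GGCGCC, the Foxd1 window CAGAC and the Foxc1 window GGCGCC. The Smad box CAGAC was in 11 of 33 forkhead windows and 49.6% of all 32851 windows, AATNNACA in 3 and 12.2%, GTAAACA in 1 and 3.65%, and GGCGCC in 5 and 11.9%. Forkhead windows had a median of 22 CpG dinucleotides and 62.7% GC, against 7 and 52.7% over all windows. A match is a description of the letters and not a binding site.

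Each library held between 11.1 and 15.5 M (mega) counts assigned to genes, and values are given as CPM, the counts per M of the TMM-scaled library. Where a call is said to be lost without named libraries, each was left out in turn. Where a library had 0 counts, 3 counts were taken as the upper limit, which is 0.193 to 0.269 CPM and covers counting error only. The 8 embryonic stem cell markers looked at were all detected, with a summed level of 3823 to 3921 CPM with Vprbp siRNA and Activin, 3889 to 4311 CPM with control siRNA and Activin, 2434 to 2790 CPM with SB, 3821 to 4201 CPM in untreated Vprbp siRNA cells and 3972 to 4210 CPM in untreated control siRNA cells. Vprbp averaged 138.3 CPM with Vprbp siRNA and 179.1 CPM with control siRNA under Activin, and 122.2 CPM with Vprbp siRNA and 171 CPM with control siRNA without addition. Replicate 1 of Vprbp siRNA with Activin stood apart from its group on the second principal component, and replicate 3 of each untreated group lay toward the SB libraries on the first. Whether replicates came from separate cultures is not stated, so the p-values reflect a spread among libraries that may be technical only. In bulk RNA, fewer cells of a type and less RNA per cell cannot be told apart.

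Of the 44 members 42 had at least 1 count, and Foxb2 and Foxi1 had none in any library. Expression was high enough for a test in 34 members, and 10 did not pass the filter on low counts. Besides Foxb2 and Foxi1 these were Foxe3, Foxl1, Foxi2, Foxn1, Foxf1, Foxf2, Foxp3 and Foxs1. Foxe3, a lens factor, and Foxl1, a factor of gut mesenchyme, had at most 2 counts in any library. Foxi2 and the thymus factor Foxn1 had at most 3. Foxf1 and Foxf2, factors of lateral mesoderm, had at most 0.723 and 0.652 CPM in any library. Foxp3, which defines regulatory T cells, reached 0.971 CPM and Foxs1 0.765 CPM. These 8 genes had low counts throughout and were left out of the edgeR test. DESeq2, run over unfiltered genes, gave adjusted p-values for some of them in some comparisons and called none.

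The 34 tested members spanned a wide range. A mean of at least 10 CPM over the 15 libraries was found for 17, a mean of 1 to 10 CPM for 11 and a mean under 1 CPM for 6. Per kilobase of exon (CPM per kb), Foxh1 was the most abundant forkhead gene in untreated control siRNA cells, at 63.8 CPM per kb with a range of 59.2 to 71.8. Foxp4 (33.3, range 30.2 to 36.5), Foxm1 (31.2, range 29.6 to 33.5) and Foxo4 (30.5, range 27.5 to 32.5) came next, with ranges that overlapped each other and not that of Foxh1. Foxk2 had 28.1 CPM per kb, with a range that overlapped that of Foxo4. Foxo3 (18.5), Foxp1 (17.2), Foxo1 (12.7) and Foxk1 (11.8) followed, and the next, Foxn2, had 6.33 CPM per kb. The 9 most abundant members belong to the FoxH, FoxP, FoxM, FoxO and FoxK subfamilies. Their order depends on exon length, taken as the union over all annotated transcripts, and the annotation used for counting is not given. By CPM alone Foxp1 (236.4), Foxm1 (179.3) and Foxp4 (164) led in untreated control siRNA cells, where Foxh1 had 87.09 CPM.

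**Figure D1:**
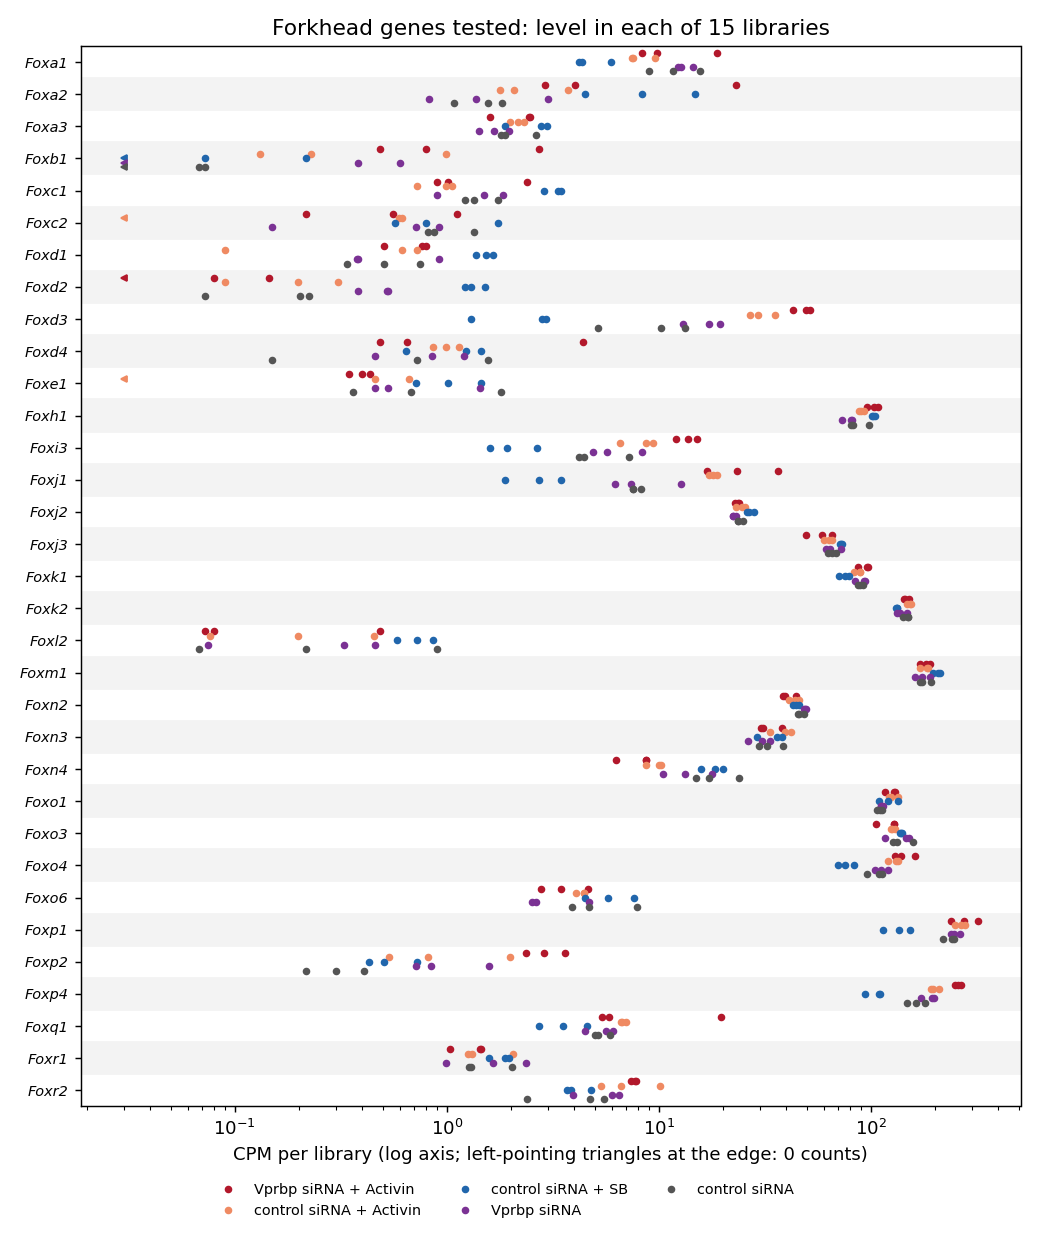
Level of 33 of the 34 tested forkhead genes in each of 15 libraries, in CPM on a log axis, 1 point per library and 1 colour per group, with 0 counts drawn as triangles at the left edge. SB libraries lie to the left of all others for Foxa1, Foxd3, Foxi3, Foxj1, Foxk1, Foxo4, Foxp1 and Foxp4, and to the right of all others for Foxc1, Foxd1, Foxd2, Foxj2 and Foxm1.

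Forkhead genes responded to SB and to Activin and none was called for the Vprbp siRNA. In edgeR's quasi-likelihood test over all genes, with Benjamini-Hochberg adjusted p under 0.05 as the threshold, 18 of the 34 tested members were called in at least 1 of 6 pairwise comparisons. With SB against untreated control siRNA cells 13 of 34 were called, against 22.6% of all genes tested. Of these 5 were higher and 8 lower, against 11.2% higher and 11.3% lower of all genes. With Activin against untreated control siRNA cells 4 were called, 3 higher and 1 lower, against 4.83% of all genes, 2.95% higher and 1.88% lower. With Activin against SB 14 were called, 9 higher and 5 lower, against 38.0% of all genes, 19.0% in each direction, so that this share is near the background. In Vprbp siRNA cells 10 were called with Activin against no addition, 7 higher and 3 lower, against 6.12% of all genes, 3.65% higher and 2.47% lower. The count in Vprbp siRNA cells was 6 without replicate 1 or 2 of the Activin group and 5 without replicate 1 or 3 of the untreated group, and 6 without the 3 libraries that stood apart. In control siRNA cells the count for Activin was 2 without replicate 2 or 3 of the Activin group or replicate 1 of the untreated group. These comparisons share groups, so their counts are not independent of each other.

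**Figure D2:**
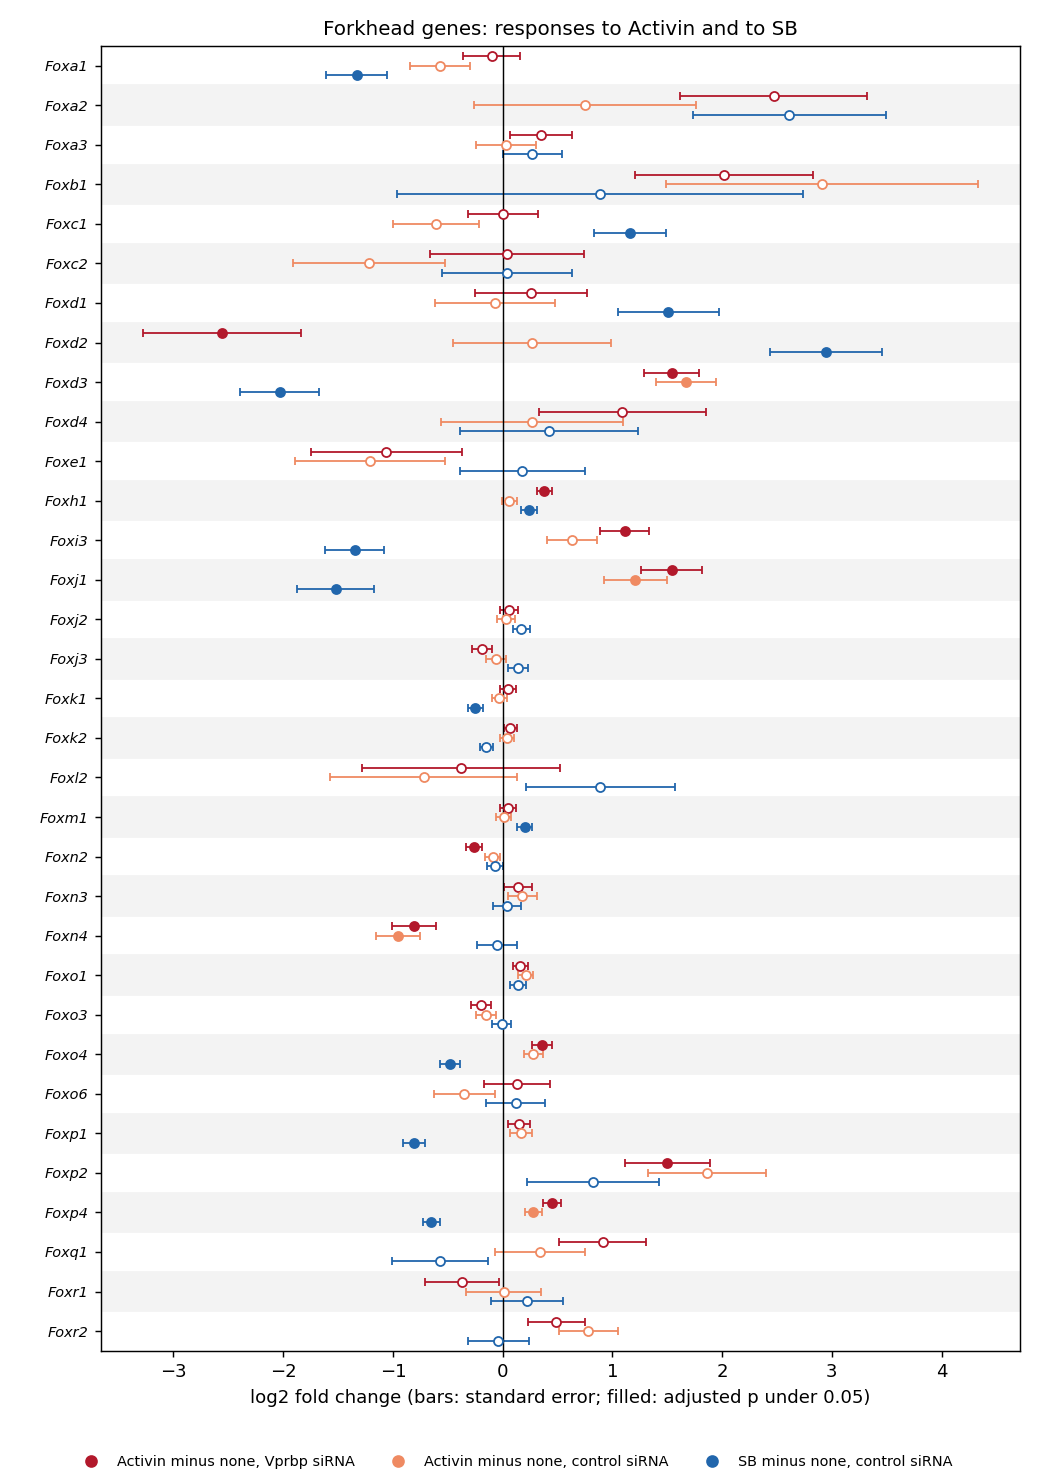
Fitted log2 fold change of 33 of the 34 tested forkhead genes for Activin in Vprbp siRNA cells, Activin in control siRNA cells and SB in control siRNA cells, each against the same siRNA without addition. Bars are the standard error of the fit and filled points passed an adjusted p of 0.05, which 10, 4 and 13 genes did.

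Foxh1, the Smad partner, was abundant in all 5 groups, with means between 78.5 and 103 CPM. Foxh1 in Vprbp siRNA cells was at 103.5, 108 and 95.8 CPM with Activin and 73.3, 81.4 and 80.7 CPM untreated. Foxh1 stood at 88.4, 90.4 and 93.1 CPM with control siRNA and Activin, 102, 104 and 103 CPM with SB and 80.8, 82.4 and 98 CPM in untreated control siRNA cells. The SB libraries were all above the untreated control siRNA libraries, by a narrow margin over replicate 3. The log2 difference between SB and untreated control siRNA cells was 0.24 ± 0.07, adjusted p = 0.022, by edgeR with Benjamini-Hochberg adjustment, and this call was lost without SB replicates 1, 2 or 3 or untreated control siRNA replicates 1 or 2 (adjusted p = 0.053 to 0.13). Activin gave 0.06 ± 0.07, adjusted p = 0.71 in control siRNA cells, with a 95% interval of -0.10 to 0.21. In Vprbp siRNA cells Foxh1 rose with Activin (0.38 ± 0.07, adjusted p = 0.0033), and the Activin libraries were all above the untreated ones. The difference between these responses was 0.33 ± 0.10 and did not pass adjustment in edgeR's quasi-likelihood test (unadjusted p = 0.0054, adjusted p = 1).

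The textbook targets of Foxh1 and Smads were followed beside it. This list and the other gene lists were chosen with earlier results of these data known. Of 11 listed targets, all tested, 5 fell and none rose with SB against untreated control siRNA cells, with a median log2 difference of -2.88, against 0.00 over all genes. They included Lefty1, a secreted Nodal antagonist (-5.70 ± 0.63), the Nodal co-receptor Tdgf1 (-2.88 ± 0.31) and Nodal itself (-0.99 ± 0.10). With Activin in control siRNA cells 6 rose and none fell, with a median of 1.68, among them Lefty2 (2.20 ± 0.42), Fgf8 (1.86 ± 0.47) and Nodal (0.58 ± 0.10). In Vprbp siRNA cells 5 rose with Activin, with a median of 1.55. The counts of this and the later lists stand against these shares of all genes. With SB 11.2% rose and 11.3% fell. With Activin 2.95% rose and 1.88% fell in control siRNA cells, and 3.65% rose and 2.47% fell in Vprbp siRNA cells.

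Foxd3, the epiblast and neural crest factor, was called with SB and with Activin, in opposite directions. The gene lies at chr4:99656299-99658671 on the plus strand of GRCm38. Foxd3 in Vprbp siRNA cells was at 49.5, 43 and 51.9 CPM with Activin and 19.6, 17.3 and 12.9 CPM untreated. Foxd3 stood at 29.5, 27 and 35.5 CPM with control siRNA and Activin, 1.31, 2.82 and 2.94 CPM with SB and 13.4, 10.2 and 5.17 CPM in untreated control siRNA cells. The Activin, untreated and SB libraries of control siRNA cells formed 3 ranges that did not overlap. By edgeR with Benjamini-Hochberg adjustment, Foxd3 fell with SB (-2.03 ± 0.36, adjusted p = 0.0013) and rose with Activin in control siRNA cells (1.67 ± 0.27, adjusted p = 0.0043) and in Vprbp siRNA cells (1.54 ± 0.25, adjusted p = 0.0032). Activin exceeded SB by 3.70 ± 0.33 on the log2 scale. Group means were 30.7 ± 4.37 CPM with Activin, 2.35 ± 0.908 CPM with SB and 9.59 ± 4.14 CPM untreated in control siRNA cells (SD, n = 3). Each of these calls was kept in all fits without 1 library. In the same SB libraries 5 of 8 embryonic stem cell markers fell, with a median of -0.46, and their part in the fall of Foxd3 was not tested.

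Foxi3, a placode factor of the otic and pharyngeal region, and Foxj1, the master factor of motile cilia, were lower with SB too. Foxi3 in Vprbp siRNA cells was at 15.1, 13.8 and 12.1 CPM with Activin and 4.89, 8.34 and 5.69 CPM untreated. Foxi3 stood at 9.41, 8.67 and 6.55 CPM with control siRNA and Activin, 1.60, 2.68 and 1.93 CPM with SB and 4.21, 4.42 and 7.27 CPM in untreated control siRNA cells. SB libraries lay below all others, while the Activin and untreated ranges of control siRNA cells overlapped. Foxi3 fell with SB (-1.35 ± 0.27, adjusted p = 0.0011) and rose with Activin in Vprbp siRNA cells (1.11 ± 0.22, adjusted p = 0.0038), while control siRNA cells gave 0.63 ± 0.23, adjusted p = 0.12. Without replicate 3 of the untreated control siRNA group the last value was 0.92 ± 0.23, adjusted p = 0.04. Foxj1 in Vprbp siRNA cells was at 36.7, 23.4 and 16.9 CPM with Activin and 6.19, 12.8 and 7.39 CPM untreated. Foxj1 stood at 18.1, 18.8 and 17.3 CPM with control siRNA and Activin, 1.89, 3.47 and 2.72 CPM with SB and 7.53, 7.54 and 8.24 CPM in untreated control siRNA cells. The 3 conditions did not overlap within control siRNA cells, and replicate 1 of Vprbp siRNA with Activin was the highest of all libraries. Foxj1 fell with SB (-1.52 ± 0.35, adjusted p = 0.0065) and rose with Activin in control siRNA (1.21 ± 0.29, adjusted p = 0.03) and Vprbp siRNA cells (1.54 ± 0.28, adjusted p = 0.0048). The Activin call in control siRNA cells was lost without Activin-treated control siRNA replicates 1, 2 or 3 or untreated control siRNA replicates 1, 2 or 3 (adjusted p = 0.068 to 0.12) and without the filter on low counts (adjusted p = 0.058), and that in Vprbp siRNA cells when only the 6 compared libraries were fitted (adjusted p = 0.12).

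Genes of motile cilia were followed beside Foxj1, by a list of 13 of which 9 were expressed enough for a test. With SB 3 fell and none rose, namely the cilium assembly gene Cfap53 (-2.08 ± 0.63), the microtubule-binding gene Tppp3 (-0.81 ± 0.25) and the dynein gene Dnaic1 (-0.75 ± 0.25), with a list median of -0.27. With Activin none was called in control siRNA or Vprbp siRNA cells, with medians of 0.09 and 0.43. The placode and neural crest list, read beside Foxi3 and Foxd3, had 10 of 13 genes tested. With SB 7 rose, including Sox9 (2.46 ± 0.50), Eya1 (1.38 ± 0.22) and Dlx3 (0.96 ± 0.14), and 1 fell, Sox10 (-1.31 ± 0.20). With Activin none was called in control siRNA cells, and Tfap2b fell in Vprbp siRNA cells. Foxd3 and Foxi3 fell in the libraries in which 7 of 10 tested genes of this list rose, and the part of either in the other was not tested.

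**Figure D3:**
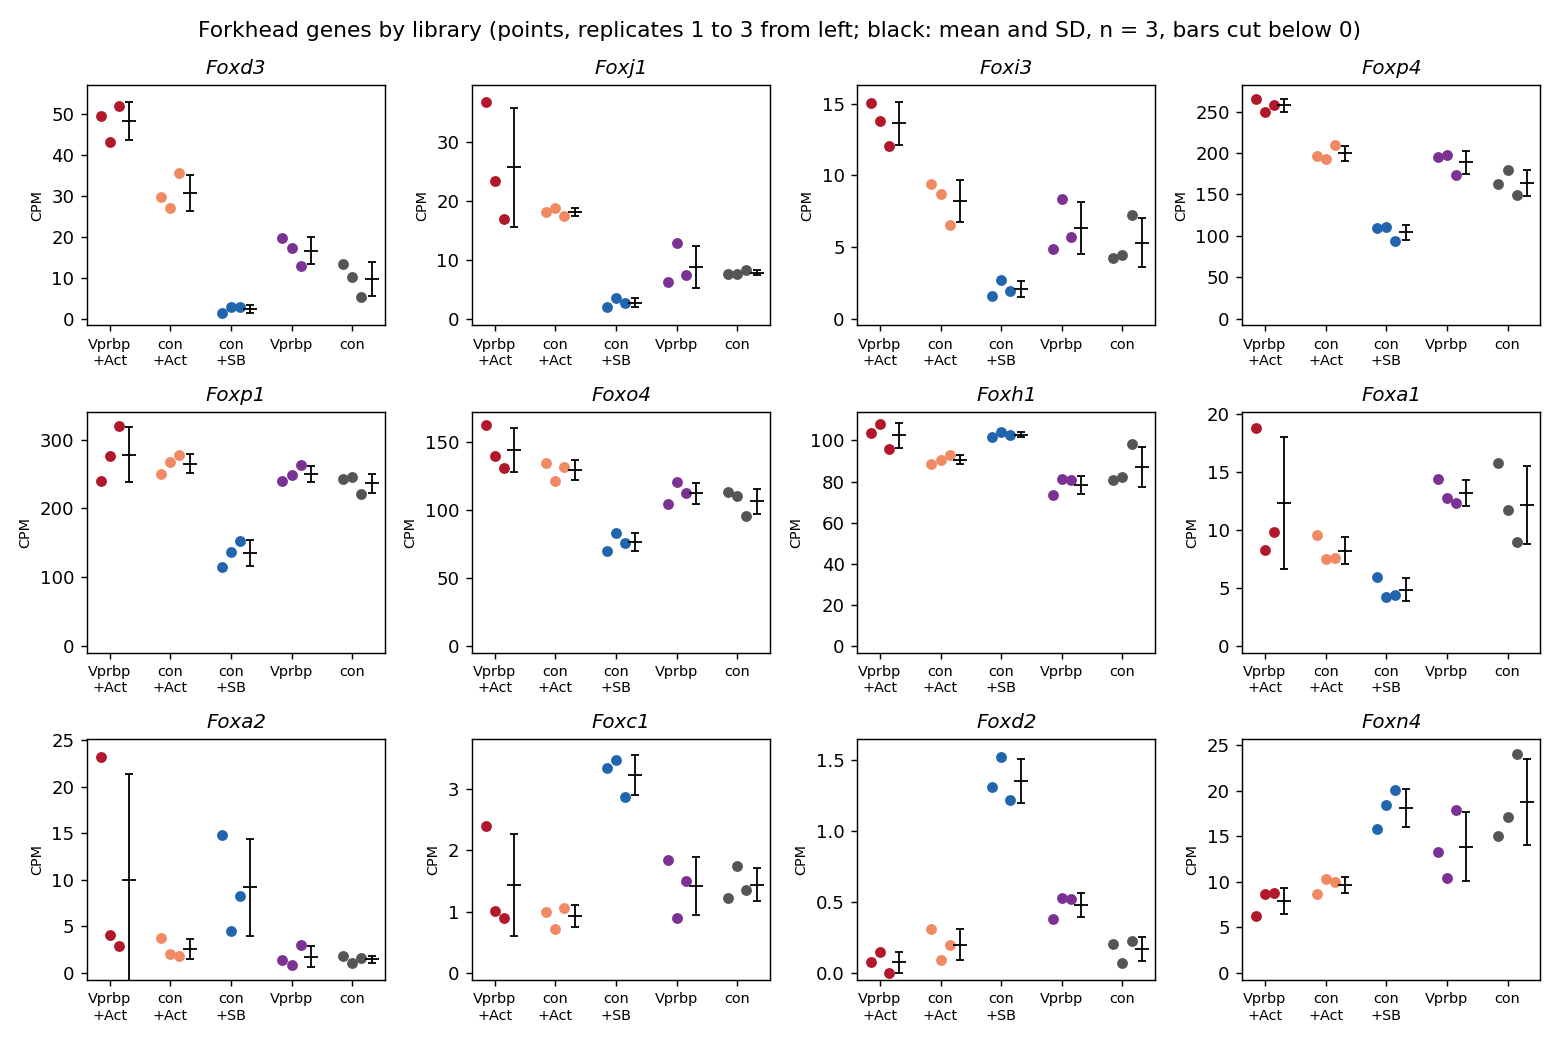
CPM of 12 forkhead genes in each library by group, with points for replicates 1 to 3 and black bars for the mean and SD (n = 3, cut below 0). Foxd3 had group means of 48.1, 30.7, 2.35, 16.6 and 9.59 CPM in the plotted order, and Foxa2 was highest in 1 library of Vprbp siRNA with Activin.

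The abundant leucine zipper forkheads Foxp4 and Foxp1 changed with smaller folds. Foxp4 in Vprbp siRNA cells was at 265.5, 250.2 and 258 CPM with Activin and 195, 198 and 173 CPM untreated. Foxp4 stood at 196, 193 and 209.7 CPM with control siRNA and Activin, 109, 110.3 and 93.7 CPM with SB and 163, 180.0 and 149 CPM in untreated control siRNA cells. SB libraries lay below all others, and the Activin libraries above the untreated ones with either siRNA. Foxp4 fell with SB (-0.65 ± 0.08, adjusted p = 3.6e-06) and rose with Activin in control siRNA (0.28 ± 0.08, adjusted p = 0.038) and Vprbp siRNA cells (0.45 ± 0.08, adjusted p = 0.0011), by edgeR with Benjamini-Hochberg adjustment. The Activin call in control siRNA cells was lost without Activin-treated control siRNA replicates 1, 2 or 3 or untreated control siRNA replicates 1 or 3 (adjusted p = 0.069 to 0.18), with library totals only (adjusted p = 0.052) and without the 3 libraries that stood apart (0.059). Foxp4 lies at chr17:47867133-47924632 on the minus strand and overlaps Gm15556 on the other strand, and since the strand setting of the counting is not given, reads of the pair cannot be told apart. Of the 44 members 13 have such a partner, and Foxp4 is the only one of them among the 18 called.

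Foxp1, a factor with a splice form described in embryonic stem cells, was called only in comparisons with SB. Foxp1 in Vprbp siRNA cells was at 239.5, 276 and 320.1 CPM with Activin and 240.4, 248 and 263 CPM untreated. Foxp1 stood at 250.4, 268 and 278 CPM with control siRNA and Activin, 115, 137 and 153 CPM with SB and 243, 246 and 220.3 CPM in untreated control siRNA cells. SB libraries lay below all others, and the Activin libraries lay above the untreated ones in control siRNA cells, while these ranges overlapped in Vprbp siRNA cells. Foxp1 fell with SB (-0.81 ± 0.10, adjusted p = 1.4e-05), and Activin exceeded SB by 0.98 ± 0.10. Activin against no addition gave 0.17 ± 0.10, adjusted p = 0.36 in control siRNA cells, with a 95% interval of -0.04 to 0.37, and 0.15 ± 0.10, adjusted p = 0.43 in Vprbp siRNA cells. Counts per gene do not separate splice forms.
Foxp2, a brain factor of low abundance here, was at 2.87, 3.61 and 2.36 CPM in Vprbp siRNA cells with Activin and 0.840, 1.58 and 0.720 CPM untreated. In control siRNA cells it was at 0.535, 0.813 and 1.98 CPM with Activin, 0.727, 0.506 and 0.430 CPM with SB and 0.407, 0.217 and 0.300 CPM untreated. The Activin libraries were above the untreated ones with either siRNA. Foxp2 rose with Activin in Vprbp siRNA cells (1.5 ± 0.39, adjusted p = 0.026), a call lost without Activin-treated Vprbp siRNA replicate 2 or untreated Vprbp siRNA replicates 1 or 3 (adjusted p = 0.099 to 0.14) and without the 3 libraries that stood apart (adjusted p = 0.097). In control siRNA cells the value was 1.86 ± 0.54, adjusted p = 0.051. It passed in DESeq2 (adjusted p = 0.036), with the replicate block (0.049), without the filter (0.043), with a filter of 1 CPM in 3 libraries (0.05 as rounded) and in some fits without 1 library, as without replicate 1 of control siRNA with Activin (2.19 ± 0.52, adjusted p = 0.034).

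Among the Foxo factors, the effectors of insulin and PI3K signalling, Foxo4 was the only one of 4 tested members to be called. Foxo4 in Vprbp siRNA cells was at 162.5, 139.7 and 131 CPM with Activin and 105, 120.3 and 112 CPM untreated. Foxo4 stood at 135, 121 and 132 CPM with control siRNA and Activin, 69.8, 83.4 and 75.9 CPM with SB and 113, 110.0 and 96 CPM in untreated control siRNA cells. SB libraries lay below all others, and the Activin libraries above the untreated ones with either siRNA. Foxo4 fell with SB (-0.48 ± 0.09, adjusted p = 0.00047) and rose with Activin in Vprbp siRNA cells (0.36 ± 0.09, adjusted p = 0.015), and Activin exceeded SB by 0.76 ± 0.09. The call in Vprbp siRNA cells was lost without Activin-treated Vprbp siRNA replicate 1 or untreated Vprbp siRNA replicates 1 or 3 (adjusted p = 0.06 to 0.077) and with only the 6 compared libraries (adjusted p = 0.06). In control siRNA cells Activin gave 0.28 ± 0.09, adjusted p = 0.068, which passed without replicate 1 or 3 of Vprbp siRNA with Activin (adjusted p = 0.034 and 0.045), with the replicate block (0.049) and with only the 6 compared libraries (0.043). Foxo1 averaged 127 ± 6.48 CPM with Activin, 121 ± 12.2 CPM with SB and 110.0 ± 3.21 CPM untreated in control siRNA cells. Foxo3 averaged 127 ± 2.80, 139 ± 1.18 and 140.0 ± 16.2 CPM in the same order, and Foxo6, a brain member, 4.31 ± 0.213, 5.97 ± 1.59 and 5.51 ± 2.14 CPM (SD, n = 3). Their log2 differences between SB and untreated cells were 0.14 ± 0.07, -0.01 ± 0.09 and 0.12 ± 0.27.

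The list of 18 Foxo targets, all tested, moved in both directions. With SB 4 rose and 3 fell, with a median of -0.04. The thioredoxin inhibitor Txnip (-0.85 ± 0.14), the stress gene Gadd45a (-0.61 ± 0.10) and the sestrin Sesn1 (-0.44 ± 0.08) fell, and the insulin receptor substrate Irs2 (0.41 ± 0.07) rose. With Activin none was called in control siRNA cells, with a median of 0.15, and Irs2 rose in Vprbp siRNA cells (0.27 ± 0.07).

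Foxk1 and Foxk2, repressors expressed in most tissues, had small differences with SB. Foxk1 in Vprbp siRNA cells was at 95.9, 86.8 and 97.6 CPM with Activin and 93.9, 84.2 and 92.5 CPM untreated. Foxk1 stood at 83.5, 89 and 89.3 CPM with control siRNA and Activin, 71.1, 78.8 and 75.3 CPM with SB and 88.6, 92 and 87.3 CPM in untreated control siRNA cells. Foxk1 fell with SB (-0.25 ± 0.07, adjusted p = 0.01), a call lost without SB replicate 1 (adjusted p = 0.062). Activin exceeded SB by 0.22 ± 0.07, adjusted p = 0.016, lost without Activin-treated control siRNA replicates 2 or 3 or SB replicate 1 (adjusted p = 0.057 to 0.088). Foxk2 in Vprbp siRNA cells was at 152, 143 and 144 CPM with Activin and 148, 137 and 133 CPM untreated. Foxk2 stood at 149, 156 and 152.5 CPM with control siRNA and Activin, 132, 134 and 133 CPM with SB and 142, 150.3 and 150.3 CPM in untreated control siRNA cells. SB libraries of both genes were below all other control siRNA libraries. Foxk2 was called for Activin against SB (0.20 ± 0.06, adjusted p = 0.0096) and had -0.15 ± 0.06, adjusted p = 0.062 for SB against untreated cells.

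Foxa1 and Foxa2, pioneer factors of endoderm and floor plate, went opposite ways with SB in their means. Foxa1 in Vprbp siRNA cells was at 18.8, 8.30 and 9.85 CPM with Activin and 14.4, 12.8 and 12.4 CPM untreated. Foxa1 stood at 9.56, 7.50 and 7.60 CPM with control siRNA and Activin, 5.96, 4.20 and 4.37 CPM with SB and 15.7, 11.7 and 8.99 CPM in untreated control siRNA cells. Foxa1 in SB libraries was below every other library. It fell with SB (-1.33 ± 0.28, adjusted p = 0.003), and Activin in control siRNA cells gave -0.57 ± 0.27, adjusted p = 0.24. Without the 3 libraries that stood apart the Activin value was -0.74 ± 0.17, adjusted p = 0.0048. Activin exceeded SB by 0.76 ± 0.29, which missed the threshold in edgeR (adjusted p = 0.052). It passed in DESeq2 (0.017), with the replicate block (0.0023), with only the 6 compared libraries (0.00039) and in some other fits.
Vprbp siRNA cells had 23.1, 4.04 and 2.91 CPM of Foxa2 with Activin and 1.38, 0.826 and 3.01 CPM untreated. Foxa2 was at 3.75, 2.08 and 1.78 CPM with control siRNA and Activin, 14.8, 4.49 and 8.30 CPM with SB and 1.83, 1.09 and 1.57 CPM untreated. SB libraries were above the untreated control siRNA libraries without overlap, and 1 library of Vprbp siRNA with Activin was far above its group. The SB difference was 2.61 ± 0.88 and missed the threshold in edgeR (adjusted p = 0.057). It passed without that library (2.61 ± 0.50, adjusted p = 0.0022), in DESeq2 (adjusted p = 0.0065), with the replicate block (0.015), without the 3 libraries that stood apart (0.007) and with only the 6 compared libraries (0.0086), while the fitted fold hardly moved. Activin against SB gave -1.86 ± 0.82 for Foxa2, adjusted p = 0.1 by edgeR. This passed without that library (0.0071), with the replicate block (0.032) and without the 3 libraries that stood apart (0.0085). In Vprbp siRNA cells Activin gave 2.47 ± 0.85, adjusted p = 0.13 by edgeR, and passed in DESeq2 (2.53 ± 0.78, adjusted p = 0.022). Without that library the edgeR value was 0.97 ± 0.59. Foxa3, the remaining member, averaged 2.16 ± 0.163 CPM with Activin, 2.55 ± 0.588 CPM with SB and 2.11 ± 0.465 CPM untreated in control siRNA cells, and was not called.

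Replicate 1 of Vprbp siRNA with Activin held the highest level of all 15 libraries for several forkhead genes of different tissues. Foxq1, an epithelial factor, was at 19.6, 5.42 and 5.83 CPM over this group, Foxd4 at 4.39, 0.650 and 0.486 CPM and Foxb1, a factor of the diencephalon, at 2.71, 0.794 and 0.486 CPM. The same library had 23.1 CPM of Foxa2, 18.8 CPM of Foxa1 and 36.7 CPM of Foxj1. It was also the highest for Foxi3 (15.1 CPM), Foxo4 (162.5 CPM) and Foxp4 (265.5 CPM). For Foxn4 (6.31 CPM) and Foxn2 (38.5 CPM) it was the lowest of all libraries. In the order of replicates 1 to 3, the definitive endoderm list of 10 genes summed to 1351, 835.3 and 734.4 CPM and the floor plate list of 12 genes to 93.09, 61.1 and 53.62 CPM in this group. Replicate 1 had the highest sum of its group for 10 of the 13 lists, the exceptions being the stem cell markers and the Foxo and Foxm1 target lists. The part of these genes in the forkhead levels was not tested.

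As whole lists, the definitive endoderm genes had 1 call with SB, Trh, which fell (-1.86 ± 0.44, list median -0.50). Trh also rose with Activin in control siRNA cells (1.76 ± 0.42, list median 0.51), while Eomes and Cldn6 rose in Vprbp siRNA cells. Extraembryonic endoderm genes had 6 of 14 higher and 1 lower with SB, with a median of 0.25, and 2 higher and 3 lower with Activin in control siRNA cells, with a median of -0.33. Floor plate and ventral midbrain genes had 7 of 12 tested. With SB Lmx1b (4.24 ± 0.35), En1 (1.5 ± 0.39) and Ntn1 (1.13 ± 0.25) rose and 2 genes fell, among them En2 (-1.44 ± 0.22), with a median of -0.59. With Activin in control siRNA cells Spon1 rose (1.34 ± 0.33).

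Higher with SB than in untreated control siRNA cells were 5 members, of which 3 are sparsely transcribed patterning factors. Foxc1 is a mesoderm and eye factor. Foxc1 in Vprbp siRNA cells was at 2.40, 1.01 and 0.902 CPM with Activin and 1.83, 0.901 and 1.505 CPM untreated. Foxc1 stood at 0.994, 0.723 and 1.06 CPM with control siRNA and Activin, 3.34, 3.47 and 2.86 CPM with SB and 1.22, 1.74 and 1.35 CPM in untreated control siRNA cells. SB libraries were above all 12 others. Foxc1 rose with SB (1.16 ± 0.33, adjusted p = 0.013), a call lost without untreated control siRNA replicate 1 (adjusted p = 0.062), and Activin against SB gave -1.77 ± 0.35, adjusted p = 5e-04. Foxd1, a factor of kidney stroma and forebrain, was at 0.612, 0.0903 and 0.727 CPM with Activin, 1.53, 1.38 and 1.65 CPM with SB and 0.339, 0.507 and 0.749 CPM untreated in control siRNA cells, and the SB libraries were again above all others. It rose with SB (1.51 ± 0.46, adjusted p = 0.021), a call lost without SB replicates 1 or 3 or untreated control siRNA replicates 1 or 2 (adjusted p = 0.056 to 0.1). Activin against SB gave -1.58 ± 0.47, adjusted p = 0.011, lost without Activin-treated control siRNA replicate 2 (adjusted p = 0.053).

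Foxd2, a factor of facial and kidney mesenchyme, was near the limit of detection outside SB. Vprbp siRNA libraries had 1, 2 and 0 counts of Foxd2 with Activin and 5, 7 and 8 untreated. Control siRNA libraries had 4, 1 and 3 counts with Activin, 18, 21 and 17 with SB and 3, 1 and 3 untreated. SB libraries were above all others, and the Activin and untreated ranges of Vprbp siRNA cells did not overlap. From summed counts, the level with SB was 8.06 times that in untreated control siRNA cells (exact 95% interval 3.67 to 21, counting error only). Foxd2 rose with SB (edgeR adjusted p = 0.00028) in all fits without 1 library. Only the SB libraries were high enough for the filter on low counts. Foxd2 was thus tested because it was high with SB, and its calls are to be read with this limit. In Vprbp siRNA cells the level with Activin was 0.153 times that of untreated cells (0.0292 to 0.517) and passed the threshold (adjusted p = 0.037), a call lost without Activin-treated Vprbp siRNA replicates 1, 2 or 3, SB replicates 1, 2 or 3 or untreated Vprbp siRNA replicates 1, 2 or 3 (adjusted p = 0.05 to 0.13), without the filter on low counts (0.058) and without the 3 libraries that stood apart (0.16). DESeq2 gave no adjusted p for it.

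Forebrain and mesoderm genes were followed beside these factors. Of 12 anterior forebrain genes 8 were tested, and with SB Hesx1 (3.70 ± 0.22), Six3 (3.26 ± 1.05), Pax6 (0.73 ± 0.13) and Nkx2-1, which had few counts in any untreated library, rose and none fell, with a median of 0.60. Pax6 fell with Activin in control siRNA cells (-1.03 ± 0.14). Of 12 genes of paraxial and lateral mesoderm 8 were tested, and with SB only Hand1 was called, which rose (2.03 ± 0.31), with a list median of 0.07. None was called with Activin against untreated cells with either siRNA.

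Foxc2, the lymphatic factor next to Foxf1 and Foxl1, averaged 0.402 ± 0.348 CPM with Activin, 1.04 ± 0.622 CPM with SB and 1.01 ± 0.294 CPM untreated in control siRNA cells (SD, n = 3), and was not called. Foxe1, the thyroid factor, averaged 0.373 ± 0.339, 1.06 ± 0.367 and 0.946 ± 0.754 CPM in the same order, and Foxl2, the ovarian factor, 0.242 ± 0.191, 0.721 ± 0.139 and 0.395 ± 0.443 CPM. The replicates of these 3 genes spread widely, so their intervals are wide. Without the 3 libraries that stood apart, Foxl2 was called for SB against untreated cells (2.29 ± 0.82, adjusted p = 0.035, against 0.89 ± 0.68 with all libraries) and for Activin against SB (-1.61 ± 0.66, adjusted p = 0.047), and Foxe1 for Activin against SB (-1.38 ± 0.54, adjusted p = 0.037). In that fit both genes passed the filter on low counts only through SB libraries. They were thus tested because they were high with SB, and these calls are to be read with this limit. For Foxc2 the 95% interval of the SB difference was -1.19 to 1.28 on the log2 scale.

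Foxm1, which drives genes of G2 and mitosis, was abundant in every group. Foxm1 in Vprbp siRNA cells was at 171, 182 and 189.7 CPM with Activin and 189.9, 174 and 161 CPM untreated. Foxm1 stood at 172, 184 and 186 CPM with control siRNA and Activin, 208, 198 and 213 CPM with SB and 170.1, 193 and 175 CPM in untreated control siRNA cells. SB libraries were above all 12 others. Foxm1 rose with SB (0.20 ± 0.07, adjusted p = 0.036), a call lost without SB replicates 1 or 3 or untreated control siRNA replicates 1 or 3 (adjusted p = 0.079 to 0.15), and Activin against SB gave -0.19 ± 0.07, adjusted p = 0.03, lost without Activin-treated control siRNA replicate 1 or SB replicates 1 or 3 (adjusted p = 0.072 to 0.13). Of 15 listed Foxm1 and G2/M genes, all tested, 1 fell with SB, Bub1 (-0.25 ± 0.09), and none rose, with a median of 0.04. With Activin in control siRNA cells Bub1 (0.35 ± 0.09) and Top2a (0.26 ± 0.06) rose, with a median of 0.13.

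Foxn4, which acts in retinal and spinal progenitors, was the only forkhead gene called lower with Activin in control siRNA cells. Foxn4 in Vprbp siRNA cells was at 6.31, 8.67 and 8.74 CPM with Activin and 13.3, 10.4 and 17.9 CPM untreated. Foxn4 stood at 8.72, 10.3 and 9.98 CPM with control siRNA and Activin, 15.8, 18.4 and 20.1 CPM with SB and 15.1, 17.2 and 24 CPM in untreated control siRNA cells. Activin libraries lay below the untreated ones with either siRNA, and the SB and untreated ranges overlapped. Foxn4 fell with Activin in control siRNA cells (-0.95 ± 0.20, adjusted p = 0.0087), in every fit without 1 library, and in Vprbp siRNA cells (-0.81 ± 0.20, adjusted p = 0.021). The second call was lost without Activin-treated Vprbp siRNA replicates 1 or 2 or untreated Vprbp siRNA replicates 1 or 3 (adjusted p = 0.055 to 0.15), with only the 6 compared libraries (adjusted p = 0.066) and without the 3 libraries that stood apart, where the value was -0.44 ± 0.16 (adjusted p = 0.13). SB against untreated cells gave -0.05 ± 0.18, with a 95% interval of -0.43 to 0.34.

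Foxn2 is a broadly expressed member. Foxn2 in Vprbp siRNA cells was at 38.5, 39.4 and 44.5 CPM with Activin and 49.5, 48.3 and 49.1 CPM untreated. Foxn2 stood at 44, 41 and 45.8 CPM with control siRNA and Activin, 44.3, 43 and 46 CPM with SB and 48.5, 45.9 and 45.3 CPM in untreated control siRNA cells. Foxn2 fell with Activin in Vprbp siRNA cells by edgeR with Benjamini-Hochberg adjustment (-0.26 ± 0.07, adjusted p = 0.039), with groups that did not overlap, but the call was lost in 11 of 15 fits without 1 library, namely those without Activin-treated Vprbp siRNA replicates 1 or 2, Activin-treated control siRNA replicates 1 or 3, SB replicates 1, 2 or 3, untreated Vprbp siRNA replicates 1, 2 or 3 or untreated control siRNA replicate 2 (adjusted p = 0.053 to 0.17). It was also lost without the filter on low counts (adjusted p = 0.062), with only the 6 compared libraries (0.14) and without the 3 libraries that stood apart (0.18). Foxr2 is an X-linked member. Foxr2 in Vprbp siRNA cells was at 7.42, 7.80 and 7.77 CPM with Activin and 6.49, 6.01 and 3.93 CPM untreated. Foxr2 stood at 5.36, 10.1 and 6.61 CPM with control siRNA and Activin, 3.85, 3.69 and 4.80 CPM with SB and 4.75, 5.51 and 2.40 CPM in untreated control siRNA cells. Foxr2 was called for Activin against SB (0.82 ± 0.27, adjusted p = 0.02), with no overlap, and lost the call without Activin-treated control siRNA replicate 2 or SB replicates 1 or 2 (adjusted p = 0.068 to 0.14). Foxr1 averaged 1.55 ± 0.447 CPM with Activin and 1.81 ± 0.204 CPM with SB, and was not called.

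Foxj2, Foxj3 and Foxn3, which are transcribed in many tissues, passed the threshold in no comparison of the fit over all libraries. Foxj2 averaged 24.5 ± 1.17 CPM with Activin, 27 ± 1.10 CPM with SB and 24.1 ± 0.770 CPM untreated in control siRNA cells. Foxj3 averaged 63 ± 2.56, 72.3 ± 0.877 and 65.5 ± 2.81 CPM and Foxn3 38.2 ± 4.39, 34.5 ± 4.83 and 33.6 ± 4.65 CPM in the same order (SD, n = 3). The 95% intervals of the SB difference were -0.00 to 0.34, -0.04 to 0.32 and -0.23 to 0.31 on the log2 scale. For Foxj2 the SB libraries (28.2, 26.7 and 26.06 CPM) lay above all others, with a difference of 0.17 ± 0.08, adjusted p = 0.16 by edgeR. For Foxj3, Activin against SB gave -0.20 ± 0.09, adjusted p = 0.078, with a 95% interval of -0.38 to -0.02. It passed with library totals only (0.04), with only the 6 compared libraries (0.011), without replicate 1 or 2 of Vprbp siRNA with Activin (0.042 and 0.04) and without the 3 libraries that stood apart (0.016). In all 16 tested members were called in none of the 6 pairwise comparisons, among them Foxa2, Foxa3, Foxb1, Foxc2, Foxd4, Foxe1, Foxj2, Foxj3, Foxl2, Foxn3, Foxo1, Foxo3, Foxo6, Foxq1 and Foxr1. With only the 6 compared libraries, Activin against SB was also called for Foxq1 (0.91 ± 0.19, adjusted p = 0.00015), Foxo3 (-0.13 ± 0.05, adjusted p = 0.044) and Foxo6 (-0.46 ± 0.20, adjusted p = 0.048). Over all libraries Foxq1 had 0.91 ± 0.43, adjusted p = 0.12 by edgeR. It passed in DESeq2 (0.037), without replicate 1 of Vprbp siRNA with Activin (0.00062) and without the 3 libraries that stood apart (0.00019). Without that replicate Foxq1 was also called lower with SB than untreated (-0.56 ± 0.19, adjusted p = 0.036).

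The siRNA against Vprbp changed no forkhead gene at the threshold. With Activin 0 of 34 members were called by edgeR between Vprbp siRNA and control siRNA, against 0.0411% of all genes, and 7 had an unadjusted p under 0.05, against 10.5% of all genes. Without addition 0 of 34 were called, against 0.0411% of all genes, and 6 had an unadjusted p under 0.05, against 8.16% of all genes. With same-numbered replicates as a block, 18 genes in place of 6 were called without addition, none of them a forkhead gene. DESeq2 called 1 member with Activin and none without.
Foxp4 came closest with Activin, at 265.5, 250.2 and 258 CPM with Vprbp siRNA, against 196, 193 and 209.7 CPM with control siRNA. The ranges did not overlap, and the log2 difference was 0.37 ± 0.08, adjusted p = 0.096 by edgeR, with a 95% interval of 0.21 to 0.53. Foxp4 passed in DESeq2 (adjusted p = 0.0045), with the replicate block (0.031), without the filter (0.032), with only the 6 compared libraries (0.017), without replicate 3 of untreated Vprbp siRNA (0.035), without replicate 3 of untreated control siRNA (0.028) and without the 3 libraries that stood apart (0.0056). Without addition its difference was 0.20 ± 0.08, adjusted p = 0.51.

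Foxd3 was likewise above control siRNA in every Vprbp siRNA library with Activin, by 0.64 ± 0.24, adjusted p = 0.37. It passed with only the 6 compared libraries (0.64 ± 0.11, adjusted p = 0.022) and without the 3 libraries that stood apart (0.63 ± 0.14, adjusted p = 0.041). Without addition the difference was 0.78 ± 0.28, adjusted p = 0.52, and the ranges overlapped. Foxi3 differed by 0.74 ± 0.21, adjusted p = 0.22 with Activin, also without overlap, and by 0.25 ± 0.23, adjusted p = 0.8 without addition. Foxp2 differed by 1.36 ± 0.39, adjusted p = 0.21 with Activin and by 1.71 ± 0.54, adjusted p = 0.46 without addition, and its counts in control siRNA cells were 7, 9 and 30 with Activin and 6, 3 and 4 untreated. None of these was called, and a difference that misses the threshold is not shown to be absent.
For Foxh1 the interval was narrow, 0.02 to 0.33 on the log2 scale with Activin and -0.31 to 0.01 without addition. The difference between the siRNA effects with and without Activin was called for 0 of 34 members, against 0% of all genes, with 2 at an unadjusted edgeR p under 0.05, Foxh1 and Foxd2, against 3.54% of all genes, and DESeq2 called none of them.

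**Figure D4:**
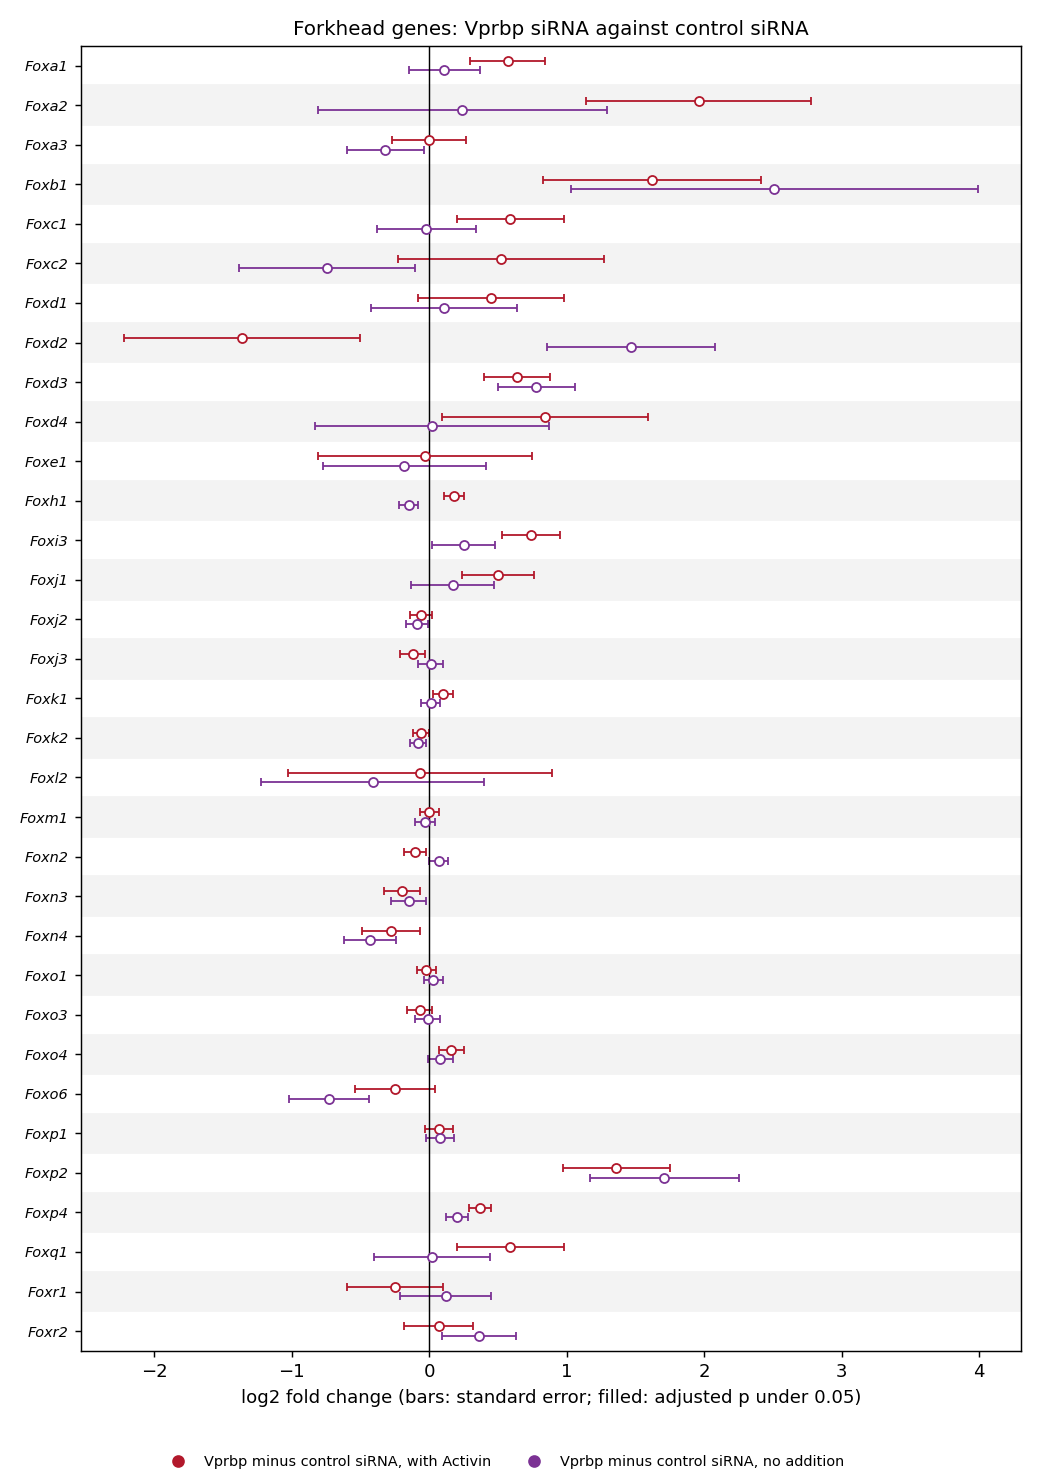
Fitted log2 difference between Vprbp siRNA and control siRNA for 33 of the 34 tested forkhead genes, with Activin (red) and without addition (purple), with bars for the standard error of the fit. No point is filled, since none passed an adjusted p of 0.05, and Foxp4 with Activin lies at 0.37 ± 0.08.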

How the data were processed

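Fragment counts per gene symbol were deposited by the authors as 1 table of 15 libraries, without normalization, made with HTSeq 0.6.1p1 on mm10, per the submitters' processing notes. The sources used here do not give the aligner, annotation or strand setting. Groups and replicate numbers come from the titles. From its 24456 rows, 5 tally rows that name no gene were removed. They held, by library, 10.3% to 16.0% of fragments outside genes, 0.678% to 0.722% ambiguous ones and 27.7% to 29.5% without an alignment.

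Genes passing filterByExpr (minimum count 10), 14600 of 24451, were fitted with 1 mean per group over all 15 libraries by edgeR 4.0.16 in R 4.3.3 (TMM factors 0.985 to 1.02, robust quasi-likelihood fit and test). Benjamini-Hochberg adjustment ran over all genes tested within each of 7 comparisons, with a threshold of 0.05. The procedure was tested on simulated data with the same spread for every gene and no outlying library. That test does not cover the libraries that stood apart here. DESeq2 1.42.0 was an alternative. Replicates of a group were never within sampling noise of each other (chi-square over its degrees of freedom, 2.82 to 16.7).

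Same-numbered libraries deviated together in all 3 pairs only between the untreated Vprbp siRNA and control siRNA groups (correlations 0.12, 0.20 and 0.37 over genes), from the data alone. The members and the gene lists were chosen with earlier results of these data known, and the fit without 3 libraries was added after seeing the data. All members are counted, and 1 tested member and 2 genes of the lists are not reported here by name or value. Values in every library are given for members called in a pairwise comparison with a mean of at least 1 CPM over all libraries, and for Foxh1. Foxd1, Foxd2, Foxa2, Foxq1, Foxd4 and Foxb1 were given library by library after their values were seen. From each list at most 4 genes with the smallest p were named. Positions, exon lengths and promoters were read from annotation tables on GRCm38, in which all 44 symbols matched.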

Additional observations from a re-analysis of the deposited data

How the results depend on the processing

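Of 41 calls of a forkhead gene in a comparison, 24 were kept under every alternative and none was reversed. The alternatives were other size factors, other filters, DESeq2, the replicate block, fitting only the 6 libraries compared, and fits without 1 library or without the 3 libraries that stood apart. The median of all genes moved by under 0.1 (log2) with other size factors. Fits without 1 library called 2399 to 3526 genes and 9 to 15 forkhead genes for SB against untreated control siRNA cells. They called 265 to 884 genes and 2 to 6 forkhead genes for Activin in control siRNA cells, 4533 to 5960 and 11 to 18 for Activin against SB, and 351 to 1208 and 5 to 10 for Activin in Vprbp siRNA cells. For Vprbp siRNA against control siRNA they called 2 to 37 genes and 0 forkhead genes without addition, and 0 to 34 genes and 0 to 1 forkhead genes with Activin. For the difference of the siRNA effects they called 0 and 0.

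With the replicate block 1058 genes in place of 705 were called for Activin in control siRNA cells, 18 in place of 6 for the siRNA without addition, and 51 in place of 6 for the siRNA with Activin, with 1 forkhead gene in place of 0. With only the libraries compared, 373 genes in place of 894 and 5 forkhead genes in place of 10 were called for Activin in Vprbp siRNA cells, 1 gene for the siRNA without addition, and 68 genes and 2 forkhead genes for the siRNA with Activin. Without the filter the siRNA gave 10 genes without addition and 15 with Activin, with 1 forkhead gene, and DESeq2 gave 30 and 76, with 1 forkhead gene. Without the 3 libraries that stood apart, 6 forkhead genes were called for Activin in Vprbp siRNA cells. The siRNA then gave 76 genes without addition, 205 genes and 2 forkhead genes with Activin, and 1 gene for the difference. The cause of these shifts was not tested. The block changed no other count of calls by over 1.5 times. Depth limits the 10 untested members and the 6 tested members under 1 CPM.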

Other observations

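Rows with forkhead-like symbols outside the family were measured beside it. The antisense RNA genes Foxd2os and Foxl2os were lower with Activin than with SB in control siRNA cells by edgeR with Benjamini-Hochberg adjustment (log2 difference -2.43 ± 0.69, adjusted p = 0.0081, and -2.51 ± 0.62, adjusted p = 0.0033). Both had low counts. Foxl2os passed the filter only through the SB libraries (1.381, 0.9405 and 0.8591 CPM), with at most 0.6762 CPM in any other library. It was thus tested because it was high with SB. Foxl2os overlaps Foxl2 on the other strand, and Foxl2 itself was called only without the 3 libraries that stood apart. In that fit Foxl2, too, passed the filter only through SB libraries. Foxred1, an oxidoreductase gene named for another protein domain, fell with SB against untreated control siRNA cells (-0.30 ± 0.09, adjusted p = 0.02).

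Of 10 genes that respond to retinoic acid, all tested, some were called in each direction. With SB against untreated control siRNA cells 5 rose, among them the germ cell gene Stra8 (1.01 ± 0.14) and the homeobox gene Meis1 (0.95 ± 0.14), and 2 fell, among them the retinal reductase gene Dhrs3 (-2.17 ± 0.25), with a median of 0.55. With Activin in control siRNA cells 5 fell, among them Stra8 (-1.92 ± 0.14), Meis1 (-1.71 ± 0.18) and Crabp2 (-1.56 ± 0.31), and 1 rose, Dhrs3, with a median of -0.51. Fibroblast genes had 7 of 10 tested, and with SB the collagen genes Col3a1 (-1.37 ± 0.40) and Col1a1 (-1.0 ± 0.19) fell and the fibrillin gene Fbn1 (0.62 ± 0.16) rose, with a median of -0.35.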
